A study of Mus musculus with 2 samples.

Results

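The genes described here are those whose symbols begin Psma, Psmb, Psmc, Psmd, Psme, Psmf or Psmg followed by a digit, the naming pattern of the subunits, activators and assembly factors of the proteasome. Members were the genes of this pattern with at least 200 unique molecular identifiers (UMIs, counted transcript ends) over both libraries. They were 46 of the 50 genes with such a symbol, among 10380 genes at or above 200 UMIs and 27998 genes in all. The rule itself uses symbols and summed UMIs, not differences between the libraries. Psmc3ip carries the pattern but encodes a partner of meiotic recombination enzymes and is not a proteasome subunit, so it was kept apart.

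The proteasome is the protease complex that degrades proteins tagged with ubiquitin in the cytosol and nucleus. Its barrel-shaped core particle is built of outer rings of α subunits, which gate the entry, and inner rings of β subunits, some of which cut peptide bonds. A regulatory particle caps the core, with a base of ATPases that unfold the substrate and a lid that removes ubiquitin. Pluripotent stem cells are known for high proteasome activity, and immune cells or cells exposed to interferon can exchange the catalytic β subunits for immunoproteasome forms.

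The data are 2 single-cell libraries of E14 cells, a male mouse embryonic stem cell line whose strain label is C57BL/6. Both were grown on gelatin without feeder cells in ESGRO-2i medium and were kept for 24 h with leukaemia inhibitory factor and 2 kinase inhibitors, 1 with the solvent DMSO and 1 with Idoxuridine, a base analogue carrying iodine that cells take up in place of thymidine when they copy DNA. The treatment label gives 10 µM Idoxuridine and a protocol field gives 10 mM, a conflict that the labels do not settle. The study tested Idoxuridine as an agent that raises noise in expression, the variation among like cells. The cells are 1 line, with 1 culture and 1 library per treatment, so no difference below has a replicate check and none was tested. Intervals in parentheses are 95% intervals of counting error only.

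The DMSO library held 40818344 UMIs in 811 cells and the Idoxuridine library 30454626 UMIs in 742 cells, with medians of 44502 and 37425 UMIs per cell. Only 2 cell barcodes occurred in both. The 8 pluripotency markers summed to 6139 UMIs per 1000000 (CPM) in DMSO and 4454 CPM in Idoxuridine, and the 6 fibroblast markers to 0.71 and 11.6 CPM. The immune cell markers summed to 6.71 and 12.1 CPM, with the pan-leukocyte gene Ptprc at 0 in both libraries and Lyz2 at 0 and 1 UMI. In that sum Cd74 was higher, with 156 and 322 UMIs, and Cd3e lower, with 118 and 47 UMIs. Marker sums of primitive endoderm, trophectoderm, mesendoderm and neuroectoderm were also higher in Idoxuridine, at 14.5 to 166 CPM against 2.45 to 111 CPM. Most of the neuroectoderm sum was Nes (4.61 and 13.6 CPM), while Sox1 was lower, with 35 and 14 UMIs. Most of the trophectoderm sum was Krt8 (93.5 and 127 CPM), and Eomes differed little, with a log2 ratio of 0.07. The part of these markers in the results was not tested. Nuclear-retained RNAs (Malat1, Neat1, Meg3, Kcnq1ot1) made up a median of 0.300% of a cell's UMIs in DMSO and 0.481% in Idoxuridine. Over the 10380 genes, the median log2 ratio of Idoxuridine over DMSO was 0.09 when libraries were scaled by total UMIs. It became −0.12 with TMM scaling and −0.16 with median-of-ratios scaling, so ratios near 0 change sign with the scaling.

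The constitutive particles were abundant and nearly level with each other. The 14 core genes summed to 0.602% of all UMIs in DMSO, and the 17 regulatory particle genes to 0.674%. In Idoxuridine the core genes held 0.518% and the regulatory genes 0.652%. As each transcript is counted once by its 3′ end, CPM compares genes without a correction for length. The plot of levels by role shows all 31 particle genes above every activator, assembly factor and alternative core gene in both libraries.

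**Figure D1:**
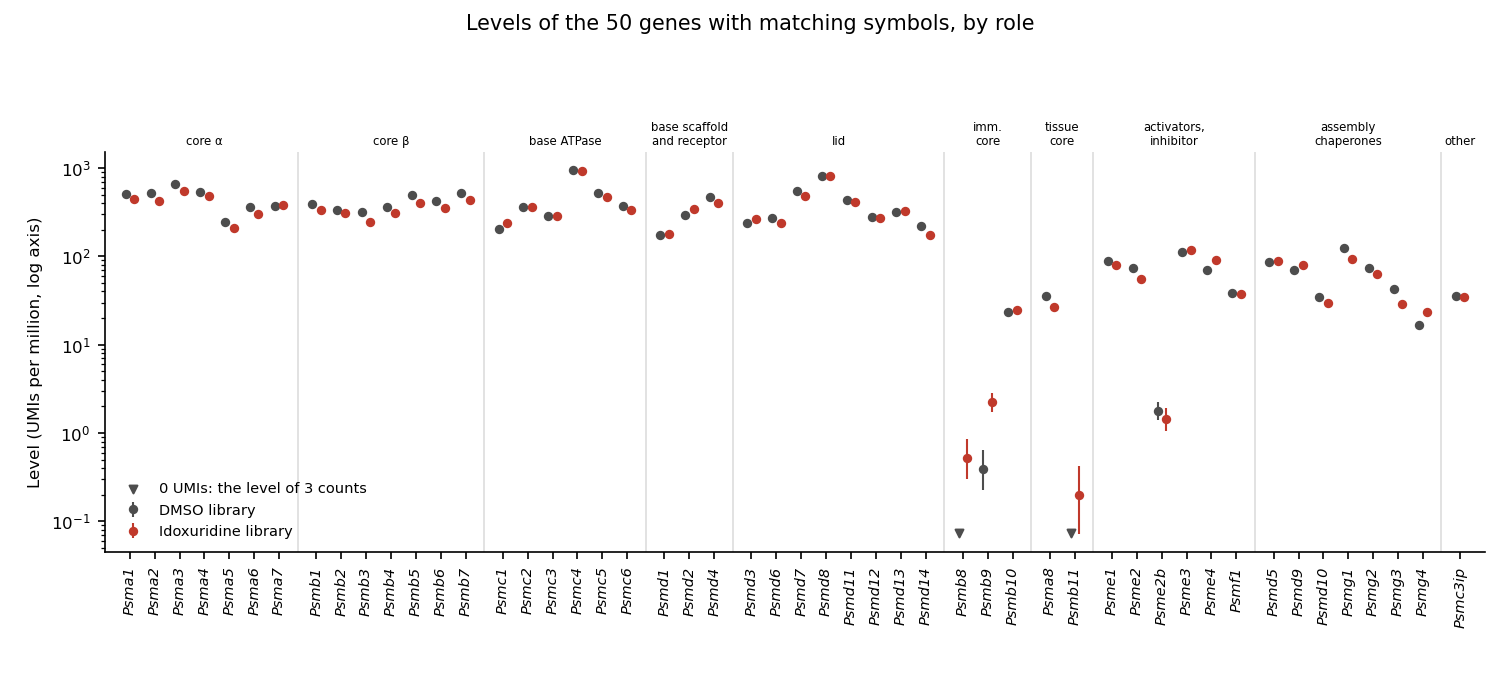
Level of the 50 genes with a matching symbol in the DMSO (grey) and Idoxuridine (red) libraries, in CPM on a log axis, grouped by role, with exact Poisson 95% intervals; triangles mark the level of 3 counts where no UMI was counted, and imm. core stands for the immunoproteasome. The particle genes lie between 172 and 940 CPM in DMSO, while Psmb8, Psmb9, Psmb11 and Psme2b lie below 3 CPM in both libraries.

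Among the 7 α ring genes, Psma3 had the highest level, 652 CPM in DMSO and 545 CPM in Idoxuridine. Psma5 had the lowest, 247 and 212 CPM. The order of the other members was Psma4, Psma2, Psma1, Psma7 and Psma6 in DMSO, from 529.9 to 359.6 CPM. The levels of Psma2 (508 to 522 CPM) and Psma1 (497 to 511 CPM) overlapped within counting error.

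In the β ring, levels ran from 317 CPM for Psmb3, a non-catalytic subunit, to 517 CPM for Psmb7, the trypsin-like protease, in DMSO. The other catalytic genes were Psmb5, the chymotrypsin-like protease, at 498 CPM in DMSO and 407 CPM in Idoxuridine, and Psmb6, the caspase-like protease, at 423 and 355 CPM. The 7 β genes spanned a narrower range than the 6 base ATPases, which ran from 203 CPM for Psmc1 to 939.7 CPM for Psmc4 in DMSO. Psmc4 was the highest of all members in both libraries, with 912.7 CPM in Idoxuridine.

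The scaffold gene Psmd1, on which the base is organized, had the lowest level of the regulatory particle in DMSO, 172 CPM against 177 CPM in Idoxuridine. Psmd2, the other large scaffold, was counted at 293 and 343 CPM, and Psmd4, a ubiquitin receptor, at 464 and 405 CPM. In the lid, Psmd8 stood apart at 808 CPM in DMSO and 804 CPM in Idoxuridine, the second highest level among members. The lowest lid gene was Psmd14, the deubiquitinase that strips ubiquitin chains before degradation, with 221 and 175 CPM. Transcripts of subunits that occupy 1 place each in the complex thus differed by several fold in counted level within a library. Psma5, Psmb3 and Psmd1, the lowest of the α ring, β ring and regulatory particle in DMSO, have near-identical copies in the gene table. The copies Gm8394, Gm4950 and Gm21972 had 93, 562 and 6 UMIs over both libraries. The part of shared or lost reads in these low levels was not tested.

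The activators and assembly factors were less abundant, with median levels of 73.0 and 70.7 CPM in DMSO against 407 CPM for the core and 319 CPM for the regulatory particle. Psme3, whose product opens the core in the nucleus, was counted at 111 CPM in DMSO and 119 CPM in Idoxuridine. Psme1 and Psme2, the interferon-inducible pair that forms a mixed activator ring, were counted at 89.6 and 73.0 CPM in DMSO and at 80.2 and 55.1 CPM in Idoxuridine. Psme4, a large single-chain activator of the nucleus, was at 70.9 and 90.04 CPM, and the inhibitor gene Psmf1 at 38.0 and 37.0 CPM. Assembly chaperones ran from 16.8 CPM for Psmg4 to 125 CPM for Psmg1 in DMSO. Psma8, the α subunit of testis proteasomes, was detected in these cells, with 35.7 CPM (33.9 to 37.6) under DMSO against 27.0 CPM (25.1 to 28.9) under Idoxuridine, or 8.80% and 6.55% of the summed UMIs of Psma7 and Psma8.

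Promoter sequences were compared between the particles, because genes varied together more within each particle than between them in both libraries, as described further on. RefSeq promoter windows on GRCm38.p6 were available for 38 of the 46 members and the 250 bases before each start were searched on both strands. The ETS-type motif CCGGAAG was found in 8 of 14 regulatory particle genes but in 1 of 11 core genes, Psma6. Over all members it was found in 13 of 38, or 34.2%, among them Psme3, Psme4, Psmg1 and the non-subunit gene Psmc3ip. The motif's share was 17.6% among 7971 genes with at least 200 UMIs and 7.83% among all 27025 genes with an entry. By single windows it was 14.9% and 6.91%. The windows below are read 5′ to 3′ on the gene's strand, with the motif, or its reverse complement CTTCCGG, in capitals.
Psmd12: gagcgggcgaCTTCCGGtgcgagtgac
Psmd6: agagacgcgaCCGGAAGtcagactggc
Psmd2: ccgcagggcgCTTCCGGtctggaggac
Psmd4: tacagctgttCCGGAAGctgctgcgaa
Psmd11: gagggcgggtCTTCCGGgtgt
Psmc1: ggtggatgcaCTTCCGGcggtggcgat
Psmc2: cgcggagctaCTTCCGGtggggaagag
Psmc6: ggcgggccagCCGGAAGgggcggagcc
Psma6: gagccaccacCCGGAAGcccgcggacc

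In Psmd12 (chr11:107479501-107479527, plus strand) the motif ended 10 bases before the RefSeq start, and in Psmd2 (chr16:20651616-20651642, plus strand) 19 bases before it. In Psmd6 (chr14:14120974-14121000, minus strand) 38 bases lay between motif and start, and in Psmc6 (chr14:45329714-45329740, plus strand) 93 bases. The sole core match, in Psma6 (chr12:55398683-55398709, plus strand), lay 125 bases before a RefSeq start that is inside the gene as GENCODE M21 draws it. The windows of Psmc1 (chr12:100110164-100110190, plus strand), Psmd11 (chr11:80428594-80428614, plus strand) and Psmd4 (chr3:95042723-95042749, minus strand) were placed 21, 4 and 118 bases before their starts. Psmc2 has a match before each of 2 RefSeq starts, of which the one at chr5:21786713-21786739 (plus strand) is shown. As for Psma6, the windows shown for Psmd12, Psmc1 and Psmc2 lie inside the genes as GENCODE M21 draws them. A match is a description of letters and not evidence of a bound factor.

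The antioxidant response element TGACNNNGC, the motif class through which the factors encoded by Nfe2l1 and Nfe2l2 are known to raise proteasome genes, was found in 5 of 38 members, or 13.2%, against 14.2% of genes with at least 200 UMIs. It occurred in the catalytic genes Psmb5 and Psmb6, shown with the motif in capitals.
Psmb5: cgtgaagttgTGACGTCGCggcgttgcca
Psmb6: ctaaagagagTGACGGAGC

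The window of Psmb5 is chr14:54618024-54618052 (minus strand) and that of Psmb6 is chr11:70525338-70525356 (plus strand), where the motif ends at the RefSeq start. CCAAT boxes (CCAAT) were found in 6 of 11 core genes and 4 of 14 regulatory genes, against 41.2% of genes with at least 200 UMIs. The E-box CACGTG was found in 4 of 38 members, against 10.5% of those genes.

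With scaling by total UMIs, the core particle genes had lower levels after Idoxuridine and the regulatory particle genes differed little. No member was at least 0.5 log2 higher with separate intervals, where 18.8% of the 10380 genes were. Only 1 member, the assembly chaperone gene Psmg3, was at least 0.5 log2 lower, where 4.2% of all genes were. The ratio was below 0 for 33 of 46 members, where it was for 39.7% of all genes, and the members' median was −0.14 beside 0.09 over all genes. Relative to that median, which removes the choice of scaling, the members' median was −0.23.

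The 14 core genes summed to a log2 ratio of −0.22 (−0.22 to −0.21), and 13 of them were below 0. All 7 β genes were below 0, from −0.12 for Psmb2 to −0.39 (−0.43 to −0.35) for Psmb3. The 3 catalytic genes were alike, −0.25 for Psmb6, −0.26 for Psmb7 and −0.29 for Psmb5. In the α ring the values ran from −0.12 for Psma4 to −0.27 for Psma2, and Psma7 alone was above 0 at 0.06 (0.02 to 0.09), which became −0.15 with TMM scaling. Relative to the median of all genes, the core sum was −0.30 and 14 of 14 core genes lay below that median.

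The 17 regulatory genes summed to −0.05 (−0.06 to −0.04), with 11 below 0 and 6 above. Psmd2 had the highest ratio, 0.23 (0.19 to 0.26), followed by the ATPase gene Psmc1 at 0.22 (0.17 to 0.26) and the lid gene Psmd3 at 0.16. With TMM scaling the 3 values were 0.02, 0.01 and −0.05. At the other end stood Psmd14 at −0.34 (−0.39 to −0.29), Psmd7, a lid scaffold, at −0.21, Psmd4 at −0.20 and Psmd6 at −0.19. With TMM scaling 14 of 14 core and 15 of 17 regulatory genes were below 0, and with median-of-ratios scaling all of both. Relative to the median of all genes, the regulatory sum was −0.14 and 14 of 17 regulatory genes lay below that median.

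The difference between the particles does not depend on the scaling. The core sum was 0.89 of the regulatory sum in DMSO and 0.795 of it in Idoxuridine, a log2 difference of −0.17. Over every choice of cells tried it lay between −0.17 and −0.15, including cells with a like share of nuclear-retained RNA (405 and 220 cells), where it was −0.15. Within the regulatory particle the ATPase sum was 0.858 of the lid sum in DMSO and 0.872 in Idoxuridine. Within the core the α sum was 1.12 times the β sum in DMSO (1.11 to 1.13) and 1.18 times in Idoxuridine (1.16 to 1.19).

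**Figure D2:**
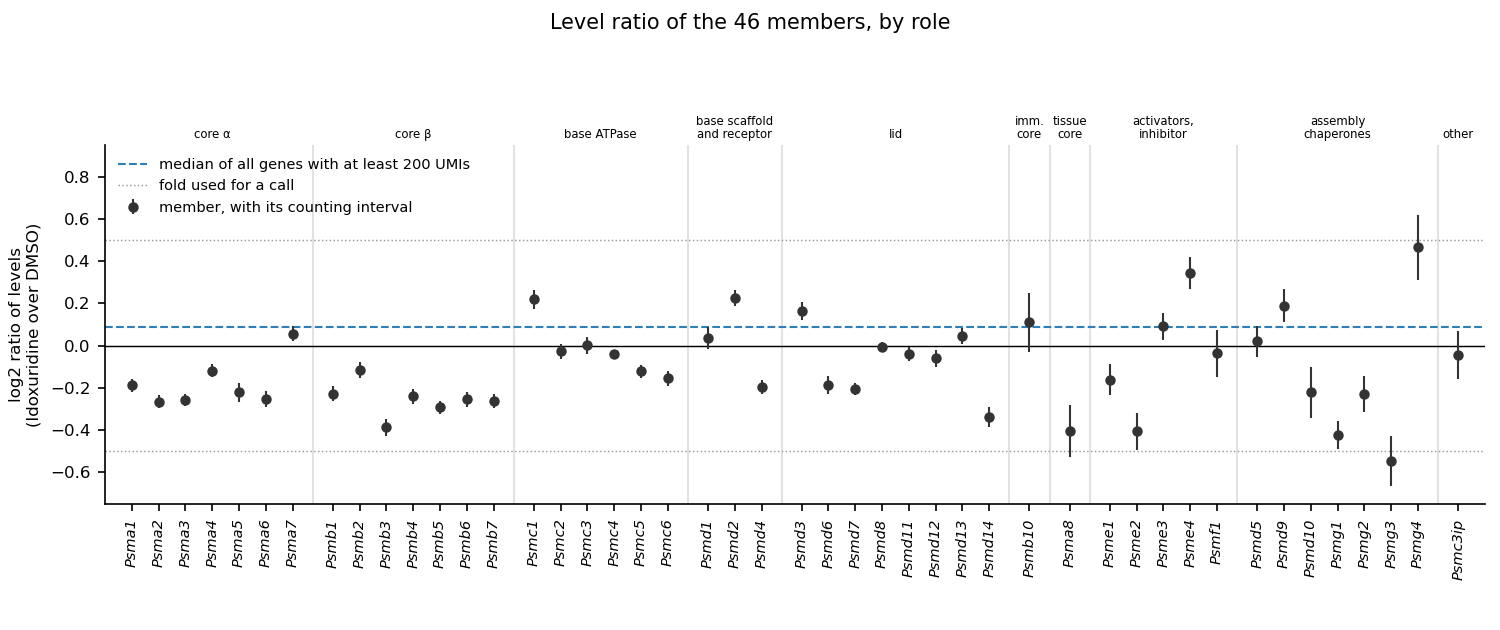
Log2 ratio of level (Idoxuridine over DMSO, scaled by total UMIs) of the 46 members by role, with exact conditional binomial 95% intervals; the dashed line is the median of all genes with at least 200 UMIs, 0.09, and dotted lines mark 0.5 in either direction. Of the core genes, Psma7 alone lies above 0, and Psmg3 at −0.55 is the sole member past a dotted line.

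Assembly chaperones had the widest spread of ratios. The core chaperones Psmg1, Psmg2 and Psmg3 had ratios of −0.42, −0.23 and −0.55 (−0.67 to −0.43), while their partner Psmg4 was at 0.47 (0.31 to 0.62). Psmg3, at chr5:139823592-139826885 on the minus strand, had a level of 42.5 CPM (40.5 to 44.5) under DMSO against 29.1 CPM (27.2 to 31.04) under Idoxuridine. The annotation places the same-strand gene Gm26938 over it, and reads in the overlap may be assigned to either. With TMM scaling its ratio was −0.76, and its call was lost with cells weighted equally (−0.50) or thinned (−0.47). The level of Psmg4 was 16.8 CPM (15.6 to 18.1) under DMSO against 23.2 CPM (21.5 to 24.99) under Idoxuridine. In cells with a like share of nuclear-retained RNA its ratio was 0.62, past the 0.5 used for a call. The base chaperones Psmd5, Psmd9 and Psmd10 had ratios of 0.02, 0.19 and −0.22.

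The activators differed in direction. Psme4 was higher, at 0.35 (0.27 to 0.42), and Psme2 lower, at −0.41 (−0.49 to −0.32). Its ring partner Psme1, on the same chromosome with 5912 bases between the genes, was at −0.16, so Psme2 made up 44.9% (43.7 to 46.1) of the pair's UMIs in DMSO and 40.7% (39.2 to 42.2) in Idoxuridine. The near-identical gene Psme2b, with 73 and 44 UMIs, could take reads of Psme2. Psma8 had a ratio of −0.40 (−0.53 to −0.28).

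The immunoproteasome genes had low levels next to the constitutive genes they replace. Psmb10 (chr8:105935735-105938444, minus strand) was the one member among them, at 23.2 CPM (21.7 to 24.7) under DMSO against 24.99 CPM (23.2 to 26.8) under Idoxuridine. Its ratio of 0.11 (−0.03 to 0.25) was within counting error of 0 and was −0.10 with TMM scaling. It made up 4.29% of the UMIs of Psmb7 and Psmb10 in DMSO (4.02 to 4.56) and 5.48% in Idoxuridine (5.11 to 5.87).

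Psmb9 and Psmb8 had under 200 UMIs and are no members. Psmb9 (chr17:34181987-34187764, minus strand), which takes the place of Psmb6, had 16 UMIs in 16 DMSO cells and 68 UMIs in 63 Idoxuridine cells. In CPM the levels were 0.392 (0.224 to 0.637) against 2.23 (1.73 to 2.83), with a log2 ratio of 2.51 (1.71 to 3.40). Even then it was 0.625% of the UMIs of Psmb6 and Psmb9. Psmb8, which takes the place of Psmb5, had 0 UMIs in DMSO, which allows up to 0.0735 CPM (3 counts), and 16 UMIs or 0.525 CPM (0.300 to 0.853) in Idoxuridine. The thymus gene Psmb11 had 0 and 6 UMIs.

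Among genes of antigen presentation, which the immunoproteasome serves, 4 of 7 with at least 200 UMIs were at least 0.5 log2 higher and none lower, where 18.8% and 4.2% of all genes were. Below 200 UMIs, Tap2 (10 and 27 UMIs) and Nlrc5 (1 and 17 UMIs) were higher and Erap1 (66 and 17 UMIs) was lower. The 4 genes were the peptide transporter gene Tap1 (2.69), the class I genes H2-D1 (2.45) and H2-K1 (1.96) and their light chain B2m (0.62). With TMM scaling B2m was at 0.41, under the 0.5 used for a call. In Idoxuridine, Tap1 UMIs were found in 28 of 63 cells with a Psmb9 UMI, or 44.4% (31.9 to 57.5), and in 175 of 679 cells without, or 25.8% (22.5 to 29.2). Cells with a Psmb9 UMI also had more UMIs, a median of 43364 against 37181, and the part of depth in this was not tested. For Psmb8 the same shares were 3 of 13 cells, or 23.1% (5.04 to 53.8), and 200 of 729 cells, or 27.4% (24.2 to 30.8). The annotation draws Psmb9 and Tap1 over each other on opposite strands, and whether the counting used the strand was not given in the sources used here. Of the immune cell markers Cd74 was higher in Idoxuridine, Cd3e was lower and Ptprc was at 0, as given above, and their part was not tested.

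Other genes of the pathway, from lists that hold no member, were set against 0.5 log2. Of all genes 18.8% were at least that much higher and 4.2% lower, and the lists were not tested against these shares. None of the 3 remaining subunit or assembly genes (Adrm1, Pomp, Shfm1) and none of 10 shuttle and extraction genes were past it in either direction. Of 7 enzymes and adaptors that bind the proteasome 2 were higher, AI314180 (0.93), the gene of the Ecm29 scaffold, and the stress-inducible adaptor gene Zfand2a (0.59). Of 9 genes that control proteasome transcription or nuclear import 2 were higher, Mafk (0.84) and Ngly1 (0.63). Of 5 genes known to rise when the proteasome is blocked 3 were higher, the chaperone genes Hspa1a (2.32) and Bag3 (0.65) and the haem oxygenase gene Hmox1 (0.80). None of these lists had a gene at least 0.5 log2 lower. With TMM scaling Bag3 (0.44), Ngly1 (0.42) and Zfand2a (0.38) fell below 0.5, while Keap1 was at −0.53 and Ubqln4 at −0.50. Hspa1a had 48 UMIs in DMSO and 179 in Idoxuridine.

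Differences between cells were compared at a fixed depth of 23500 UMIs per cell, to which 764 DMSO and 648 Idoxuridine cells were thinned. The Fano factor, a gene's variance in UMIs divided by its mean, is 1 where counting alone sets the spread. Most members lay little above 1. In DMSO the Fano factor was 1.02 for Psmb1 and 1.08 for Psmc3, while Psmc4 reached 2.04, Psmd8 1.66 and Psmd7 1.401. The same 3 genes were highest in Idoxuridine, at 2.10, 1.83 and 1.53.

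With Idoxuridine 37 of 46 members had a higher Fano factor, as had 79.2% of 7316 genes measured, a share close to that of the members at this depth. Their median log2 Fano ratio was 0.13, beside 0.08 over all genes. At least 0.25 log2 higher were 6 members, where 10.5% of genes were, and none was that much lower, where 0.383% were. The greatest difference was that of Psme2, 1.15 in DMSO and 1.46 in Idoxuridine, followed by Psme4 (1.11 to 1.38), Psmc1 (1.17 to 1.42), Psmd10 (0.977 to 1.18), Psmb10 (1.07 to 1.29) and Psmd6 (1.26 to 1.51). Psma3 had the lowest ratio, with 1.35 in DMSO and 1.26 in Idoxuridine. In raw UMIs without thinning, 12 of 46 members were higher in Idoxuridine, where 49.9% of 8766 genes were, and the members' median log2 ratio was −0.27 beside −0.00011 over those genes. The reading of the members against other genes thus depends on the thinning.

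**Figure D3:**
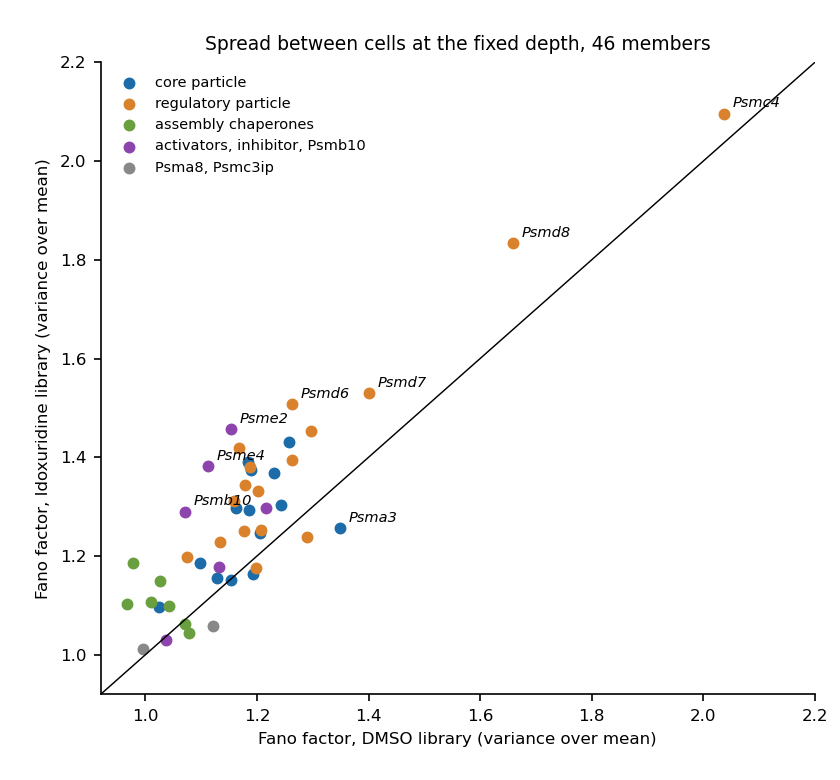
Fano factor (variance over mean of UMIs per cell at 23500 UMIs) of the 46 members in the DMSO library (x axis) and the Idoxuridine library (y axis), coloured by role; the line marks equal values. Points above the line, 37 of 46, have the larger spread in Idoxuridine, and Psmc4 and Psmd8 stand apart in both libraries.

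Summed over its genes, each particle had a spread between cells near that of ribosomal protein genes. Both particles together made up a median of 1.28% of a cell's UMIs in DMSO, with 5% of cells below 1.04% and 5% above 1.46%. In Idoxuridine the median was 1.18%, and 80.7% of cells lay below the DMSO median. After the counting part was removed, the coefficient of variation of the core sum was 10.3% in DMSO and 11.2% in Idoxuridine, and that of the regulatory sum was 11.5% and 12.7%. The sum of mitochondrial ribosomal protein genes had 9.65% and 10.2%, that of cytosolic ones 13.8% and 12.7%, and that of CCT chaperonin genes 15.4% and 16.7%. The core to regulatory ratio of a cell had medians of 0.859 and 0.777, with 74.2% of the Idoxuridine cells under the DMSO median.

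Covariation of genes was described by the normalized covariance, the covariance of 2 genes' UMIs over the product of their means, which counting noise does not enter and which is 0 for independent genes. The members varied together, and more so within a particle than between particles. In DMSO the median was 0.0107 over 91 core pairs, 0.0129 over 136 regulatory pairs and 0.00513 over 238 mixed pairs. The values in Idoxuridine were 0.0113, 0.0153 and 0.0056. Pairs of a particle gene with any other measured gene had medians of −0.00034 and −0.000026. CCT chaperonin genes, a protein-folding complex given for scale, were higher among themselves, at 0.0208 and 0.0244. Particle genes with CCT genes had a median of 0.0102 in both libraries, above that of the mixed core and regulatory pairs. Mitochondrial ribosomal protein genes among themselves had medians of 0.0081 and 0.00857, and cytosolic ones 0.0195 and 0.0154. Covariation of this size was thus not particular to the proteasome genes.

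Summed particles gave the same order. Over the cells, the counting-corrected correlation was 0.46 between core and regulatory sums in DMSO and 0.48 in Idoxuridine (764 and 648 cells). Within the core, α and β sums correlated at 0.76 and 0.69, and within the regulatory particle, base and lid sums at 0.87 and 0.84. The core and the assembly chaperones correlated at 0.75 in DMSO and 0.35 in Idoxuridine. With the CCT sum, the regulatory sum correlated at 0.76 and 0.62, above its values with the core, and the core sum at 0.16 and 0.23. These sums share each cell's library and depth, and are descriptions.

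Values of single pairs were related between the libraries but not equal. Over the 465 pairs of particle genes, the 2 libraries' values had a Pearson correlation of 0.72 and a Spearman correlation of 0.67 across pairs, which are not independent, and 388 pairs were above 0 in both. The scaffold gene Psmd1 with the lid gene Psmd6 gave 0.0346 in DMSO and 0.0349 in Idoxuridine, Psmd1 with Psmd2 gave 0.0445 and 0.0282, and Psmd6 with Psmd14 gave 0.0287 and 0.0362. Among the pairs below 0 in both libraries were the scaffold gene Psmd1 with β genes: Psmd1 with Psmb6 at −0.0144 and −0.0168, Psmd1 with Psmb5 at −0.0122 in both, and Psmd1 with the non-catalytic Psmb3 at −0.00974 and −0.0174. Of the genes in the strongest pairs, Psmd2, Psmd6 and Psmd12 hold the ETS-type motif shown above, while Psmd1, Psmd14, Psmc4 and Psmd8 have none in their windows.

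**Figure D4:**
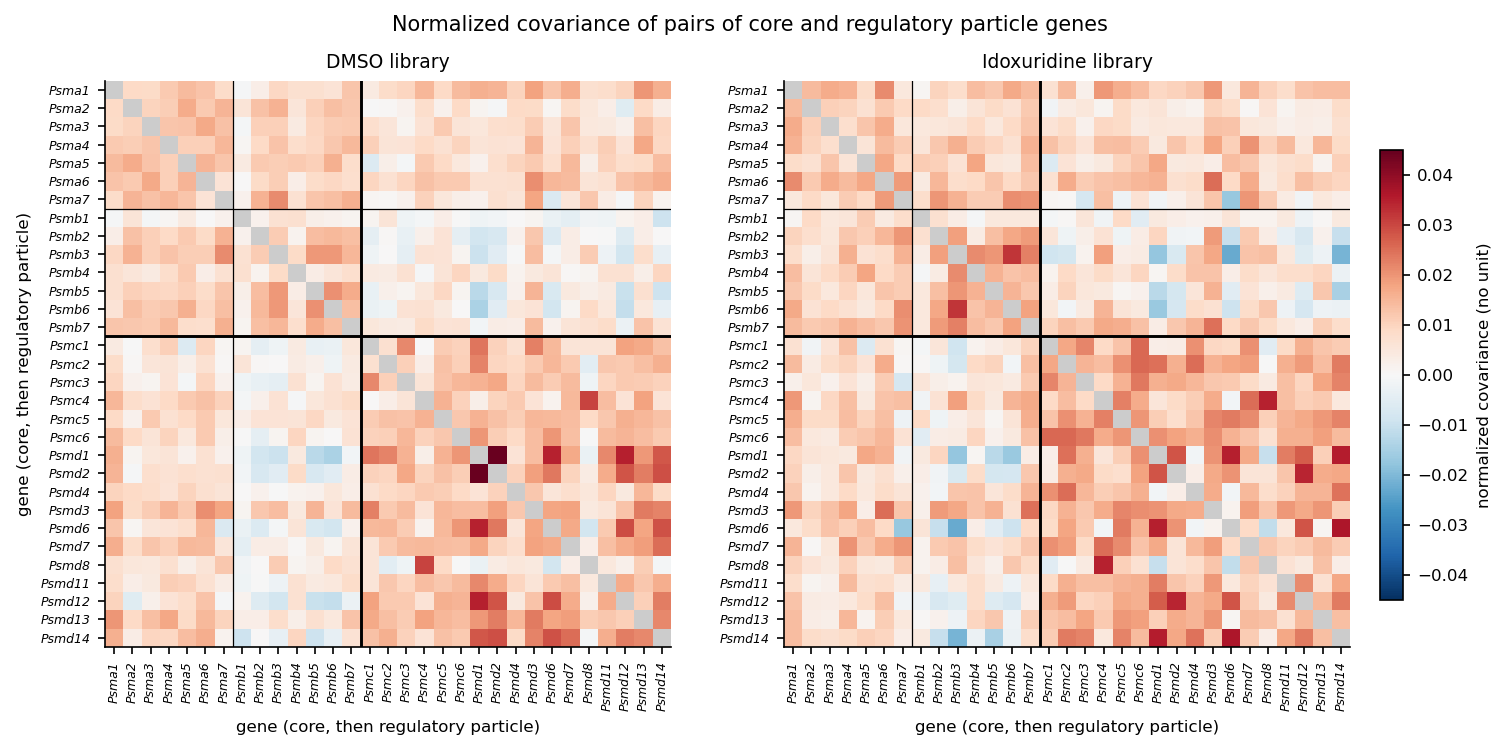
Normalized covariance of the 31 core and regulatory particle genes at 23500 UMIs per cell in the DMSO (left) and Idoxuridine (right) libraries; thick lines part the core from the regulatory particle, thin lines the α from the β ring, and the grey diagonal is not drawn. Values within each particle are mostly positive, while β genes with Psmd1, Psmd6 or Psmd12 include values below 0, such as −0.0168 for Psmd1 with Psmb6 in Idoxuridine.

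The particles also differed in what they varied with. All 17 regulatory genes had a positive normalized covariance with the summed S phase genes in both libraries, with medians of 0.0141 and 0.0158, as did all 7 α genes, with medians of 0.00897 and 0.0122. Of the 7 β genes 1 was positive in DMSO and 3 in Idoxuridine, with medians of −0.00369 and −0.000144. With the CCT genes the pattern was similar: 17 of 17 regulatory genes, 6 of 7 α genes and 2 of 7 β genes were positive in DMSO, and 17, 6 and 3 in Idoxuridine. With the 105 cytosolic ribosomal protein genes 0 of 17 regulatory genes were positive in either library, while 5 of 7 β genes were positive in each. No share of all measured genes with these signs is given for comparison, so the signs cannot be called particular to the particles.

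Nuclear-retained RNA varied in the opposite direction to the particles. Both particle sums together correlated at −0.48 with it in DMSO and −0.47 in Idoxuridine. A negative covariance with it was found for 28 of 31 and 31 of 31 particle genes, again without the share of all genes for comparison. In cells of like nuclear-retained share the core and regulatory sums correlated at 0.37 and 0.38. The part of nuclear-retained RNA in the other covariances was not tested. With G2/M genes the particles correlated at −0.08 and −0.05, and with the pluripotency markers at −0.02 and 0.02.

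**Figure D5:**
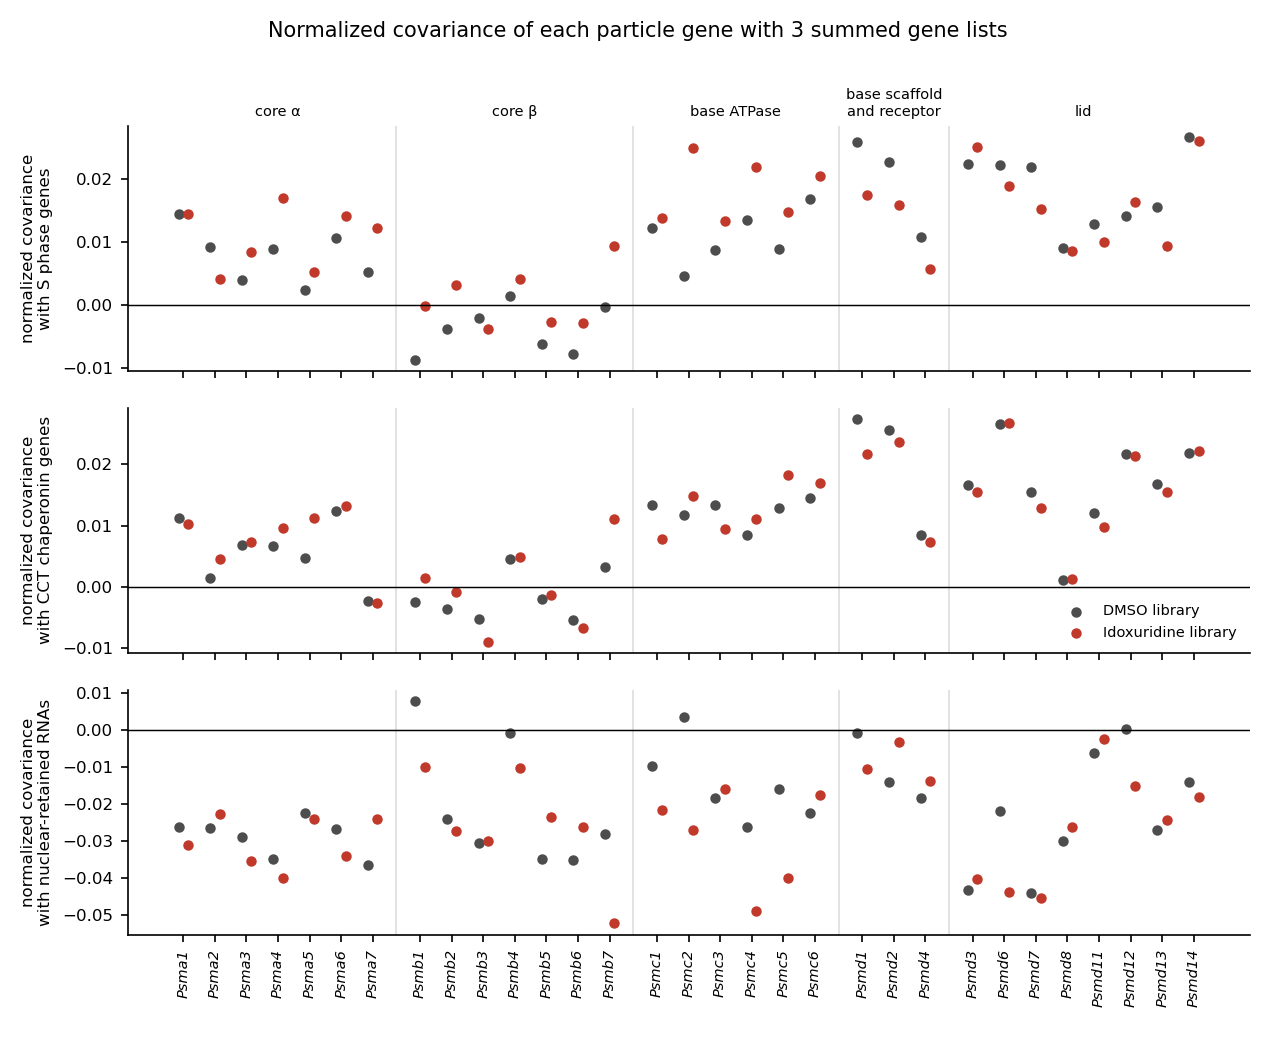
Normalized covariance of each of the 31 particle genes with the summed S phase genes (top), CCT chaperonin genes (middle) and nuclear-retained RNAs (bottom), in the DMSO (grey) and Idoxuridine (red) libraries, by role. The regulatory genes all lie above 0 in the upper panels, while most β genes lie near or below 0.

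Outside the family, the genes whose UMIs correlated best with both particles' sum at the fixed depth, among 3606 genes with a mean of at least 1 UMI per cell, were the chaperonin gene Cct7 (0.437 in DMSO, 0.390 in Idoxuridine), Fkbp4 (0.427, 0.357), Set (0.416, 0.271), Pa2g4 (0.415, 0.362), Ddx39 (0.393, 0.389), Eif4a1 (0.390, 0.328), Phb2 (0.389, 0.357), Pkm (0.384, 0.298), Ppa1 (0.364, 0.318) and Ncl (0.363, 0.349). The median over all candidates was 0.0188 in DMSO. Of these 10, 6 were among the first 10 in Idoxuridine, and the last of them ranked 25. Counting noise lowers this correlation more in genes with few UMIs, so the ranking favours abundant genes. The 10 had 427 to 2971 CPM in DMSO. By counting-corrected correlation in DMSO, Nudc (0.743), which is not among the 10, lay above all of them.

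Psmc4 and Psmd8, the members with the highest levels and Fano factors, varied together. The Fano factor grows with the mean. By squared coefficient of variation after the counting part was removed, Psmc4 (0.0474 in DMSO) and Psmd8 (0.0351) lay below Psma8 (0.141), Psmb10 (0.134), Psme1 (0.0994) and Psme2 (0.0909). Within the regulatory particle, Psmd14 (0.0537) and Psmd1 (0.0479) lay above both, and Psmd2 (0.0413) and Psmd6 (0.0393) above Psmd8. The normalized covariance of Psmc4 with Psmd8 was 0.0303 in DMSO and 0.0347 in Idoxuridine, and their counting-corrected correlation was 0.74 and 0.73. They encode a base ATPase and a lid subunit, and lie near each other on chromosome 7, with 1132481 bases between their starts (chr7:28041707-28050101 and chr7:29174188-29180701, both on the minus strand). Their sum correlated at 0.27 and 0.35 with the sum of the other 15 regulatory genes. Without the pair, the core and the regulatory sums correlated at 0.40 and 0.42.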

How the data were processed

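Single-cell libraries of DMSO- and Idoxuridine-treated cells were made with 10x 3′ chemistry, per the labels' protocols. The values the authors deposited are raw UMI counts for each gene in each cell. Per the submitters' processing notes, Cell Ranger 2, Seurat and build mm10 were used, with no role given. Annotation release and barcode filter: not given in the sources used here. Every deposited barcode entered. Each sample was grouped by its treatment label.

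UMIs were summed per library and scaled to 1000000 UMIs (CPM), with exact Poisson intervals for levels, conditional binomial intervals for ratios and Clopper-Pearson intervals for shares. A call needed 0.5 log2 and separate Poisson intervals. For spread and covariance cells were brought to a common 23500 UMIs (the 10th percentile rounded down to a multiple of 500) by the exact expectation of thinning. This left out 47 DMSO and 94 Idoxuridine cells. Spread was measured for genes with a mean of at least 0.25 UMI per cell. Doublets were not called; an alternative left out cells above 2 times the median UMIs. Calls and covariances were tested on simulated data.

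Members and gene lists were chosen with earlier results of these data known. The naming rule gave every member with its role, in full for those with the highest or lowest value of their role, and of each other list up to 4 genes by size of ratio. Non-members most like the particles were to be ranked by counting-corrected correlation, which passed 1 for 14 genes, so the plain correlation was used, a choice made after seeing the data.

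Positions come from GENCODE M21 (GRCm38), in which 27645 of 27998 identifiers (98.7%) and all 46 members were found, and promoters those of RefSeq on GRCm38.p6. A gene on the opposite strand overlaps 12 members and a gene on the same strand 3. Near-identical copies, at least 95% over 100 of the last 500 bases, were found for 11 members. For 5 of them (Psma5, Psmb3, Psmd1, Psmd2, Psme2) a copy is in the gene table. For Psma3, Psma4, Psmb5, Psmc1, Psmd11 and Psme1 the copies are outside it. The counts of all 11 are uncertain to that extent. Python 3.11.15, numpy 2.4.6, scipy 1.17.1, pandas 2.3.3, matplotlib 3.10.9 and R 4.3.3 with edgeR 4.0.16 (TMM factors) were used. The result of 1 pathway list is not reported here.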

Additional observations from a re-analysis of the deposited data

How the results depend on the processing

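With 1 library per treatment no test, no omitted replicate and no estimate of the spread between cultures was possible. No paired analysis was possible because each group has 1 library. Depth limits Psmb8, Psmb9 and Psmb11, with 0 to 68 UMIs. Of 368 values for single members under 8 alternatives, 250 moved by less than their counting interval and 118 by more.

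TMM scaling gave summed log2 ratios of −0.33 for all members, −0.43 for the core, −0.26 for the regulatory particle and −0.10 for Psmb10, a median of −0.35, and 7 members at least 0.5 log2 lower in place of 1 (Psma8, Psmb3, Psmb5, Psmd14, Psme2, Psmg1 and Psmg3). Median-of-ratios scaling gave −0.37, −0.47, −0.30 and −0.14, a median of −0.39, and 12 lower. Totals without mitochondrial and ribosomal genes gave −0.10 for all members, −0.19 for the core and −0.0286 for the regulatory particle. Cells weighted equally gave −0.0629 for the regulatory particle and 0 members lower, and thinned cells −0.11 for all members, −0.20 for the core and 0 lower. In cells of similar nuclear-retained share, an alternative chosen after seeing the data, the values were −0.0856, −0.17, −0.0174 and −0.0942, with 1 member higher (Psmg4). With members from 50 UMIs, 1 was higher (Psmb9).

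In raw UMIs the median Fano ratio was −0.27 with 12 members higher (−0.00011 and 49.9% over all genes), the core and regulatory sums correlated at 0.957 and 0.949, and the median normalized covariance of member pairs was 0.217 and 0.210 in place of 0.00696 and 0.00631. The same correlation was 0.555 in Idoxuridine at the lower depth of 11500 UMIs, 0.527 and 0.541 without high-UMI cells, and 0.366 and 0.377 in cells of similar nuclear-retained share. Leaving out cells above 10% mitochondrial UMIs, also added after seeing the data, moved none of these results. Except for the scalings, the cause of these shifts was not tested.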

Other observations

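The genes that varied with Psmc4 and Psmd8 lay on few chromosomes. Of the 20 genes with the highest correlation with Psmc4 in both libraries (ranked by the lower value, Psmd8 included), 13 lie on chromosome 6, 4 on chromosome 7 and 3 on chromosome 3. For Psmd8 they were 9, 8 and 3. These 3 chromosomes hold 18.4% of the 3643 candidate genes. For the members with the next highest Fano factors, the count of 20 on the same chromosomes was 6 for Psmd7, 4 for Psma3 and 2 for Psmd2. The chromosomes were singled out after the values were seen, and genes of 1 cell are not independent.

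The partners of Psmc4 included Ruvbl1 (0.466 in DMSO, 0.411 in Idoxuridine), Cnbp (0.440, 0.381), Fkbp4 (0.413, 0.385) and Phb2 (0.396, 0.417) on chromosome 6, and its neighbours Timm50 (0.407, 0.386) and Fbl (0.396, 0.390). The summed pair had a counting-corrected correlation of 0.77 and 0.65 with the sum of chromosome 6 genes, and of 0.68 and 0.67 with 109 other genes whose starts lie within 2 Mb of either gene. With the rest of chromosome 7 it was −0.32 and −0.30. The other 15 regulatory genes correlated with chromosome 6 at 0.19 and 0.15, and the core genes at 0.01 and 0.04. In DMSO the summed UMIs of chromosome 6 varied more from cell to cell than those of any other chromosome measured (1 to 19 and X), with a coefficient of variation of 8.38% after the counting part was removed, and in Idoxuridine it was 9.32%, the third highest. The cells' chromosome content was not measured, and its part in the spread of Psmc4 and Psmd8 was not tested.

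The inducible members showed small correlations with each other in single cells. At the fixed depth Psme1 and Psme2, neighbours on chromosome 14, correlated at 0.117 in DMSO and 0.198 in Idoxuridine without correction for counting. Psme2 with Tapbp, which loads peptides on class I molecules, gave 0.0836 and 0.169. Psmb10 with Psme1 gave 0.0567 and 0.0952. Psmb10 with Psme2 was lower in Idoxuridine, 0.0806 in DMSO and 0.0542, and Psme1 with Tapbp gave 0.118 and 0.116, while Psmb10 with H2-K1, measured in Idoxuridine alone at this depth, gave 0.00101. The intervals of these values were not computed.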
